A study of Mus musculus with 8 samples.

Results

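The genes of glycolysis and of the hypoxia response described here are 37 in number, taken from a list by gene symbol. Glucose is brought into cells by transporters and broken down to pyruvate by a chain of glycolytic enzymes, most of which exist as several isoforms made by separate genes. Low oxygen lets the transcription factor subunit HIF-1α escape its prolyl hydroxylases, and it then switches on many of the same glycolytic genes together with genes for blood vessel growth, pH control and mitochondrial turnover. Of the 37 genes, 33 had a probe on the array and 31 were above background on at least 1 of 8 arrays, among 13072 features tested in the whole series. Gpi1, Eno1, Ldhb and Ankrd37 had no matching probe. Slc16a1 and Bnip3 were never above background, so neither had a level here. Of the 31, 26 were above background on all 8 arrays and 5 (Slc16a3, Pgk1, Pfkfb3, Car9 and Adm) on some of them.

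RNA of mouse prostate was hybridised to Illumina bead arrays, with 1 array per sample. TRAMP mice carry a viral oncogene transgene whose probasin promoter is active in prostate epithelium, and they develop prostate tumours. All mice were on the C57Bl/6 background. Tumour groups of 3 kinds and 1 normal group were compared. Tumours of 24-week TRAMP mice given cromolyn, a mast cell stabiliser, from 8 weeks of age filled 3 arrays. A tumour of a 24-week TRAMP mouse carrying KitW-sh, an allele of Kit that leaves mice without mast cells, filled 1 array. Tumours of untreated 30-week TRAMP mice filled 2 arrays, and non-tumour prostates of 30-week wild type mice filled 2. The 24-week tumours were thus younger than the untreated ones, and age cannot be told apart from drug or Kit genotype. The labels number the samples as replicates without saying that they came from separate animals, so each p-value rests on the variation among these arrays, part or all of which may be technical.

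Many hypoxia-responsive genes carry in their promoters a short core motif that HIF-1 binds, ACGTG or GCGTG, read on either strand as CACGT or CACGC. RefSeq windows of the 250 bases before a gene's start (GRCm38.p6) were found for 31 member genes, 45 windows in all. The motif was present in 35 of the 45 windows (77.8%), against 12679 of 32851 windows of all genes (38.6%). The members were listed for their part in glycolysis and the hypoxia response, so this higher share is not independent evidence. The windows below belong to members with 1 annotated window and the largest differences between cromolyn and untreated tumours. They are shown because 2 of these genes (Hk2, Slc2a1) fell and 3 (Eno2, Pfkp, Slc16a3) rose. Each is written 5′ to 3′ on the gene's own strand, with every motif match in capitals.
Hk2, chr6:82774455-82774704, minus strand: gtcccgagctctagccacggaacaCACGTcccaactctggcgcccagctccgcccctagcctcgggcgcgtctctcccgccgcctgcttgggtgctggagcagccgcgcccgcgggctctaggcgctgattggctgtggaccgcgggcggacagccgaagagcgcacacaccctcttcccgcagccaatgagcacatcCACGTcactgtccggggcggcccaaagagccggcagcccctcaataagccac
Slc2a1, chr4:119108495-119108744, plus strand: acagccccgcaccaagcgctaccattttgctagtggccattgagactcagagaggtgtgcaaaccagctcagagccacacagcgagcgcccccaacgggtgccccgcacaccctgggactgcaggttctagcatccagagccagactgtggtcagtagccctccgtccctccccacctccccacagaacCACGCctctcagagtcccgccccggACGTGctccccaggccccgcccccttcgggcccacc
Eno2, chr6:124769674-124769923, minus strand: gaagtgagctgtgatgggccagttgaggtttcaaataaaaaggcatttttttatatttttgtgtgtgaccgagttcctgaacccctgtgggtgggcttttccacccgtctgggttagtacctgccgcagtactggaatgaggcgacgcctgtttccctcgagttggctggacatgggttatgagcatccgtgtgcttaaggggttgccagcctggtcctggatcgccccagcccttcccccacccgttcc
Pfkp, chr13:6648772-6649021, minus strand: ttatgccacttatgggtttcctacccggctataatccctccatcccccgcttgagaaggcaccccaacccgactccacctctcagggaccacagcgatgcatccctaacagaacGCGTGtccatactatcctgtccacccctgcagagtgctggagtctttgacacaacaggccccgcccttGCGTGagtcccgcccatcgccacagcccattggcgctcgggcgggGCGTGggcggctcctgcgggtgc
Slc16a3, chr11:120948817-120949066, plus strand: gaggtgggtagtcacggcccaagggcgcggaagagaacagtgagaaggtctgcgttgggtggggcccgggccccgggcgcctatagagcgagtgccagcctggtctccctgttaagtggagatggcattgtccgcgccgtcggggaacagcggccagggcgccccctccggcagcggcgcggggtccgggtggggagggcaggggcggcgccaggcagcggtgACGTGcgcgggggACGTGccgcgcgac
The windows of Hk2, Slc2a1 and Slc16a3 each held 2 matches and that of Pfkp held 3. The Eno2 window held no match, and Eno2 had the largest difference of all members. Among the members called higher in cromolyn than in untreated tumours, 7 of 10 windows held a match, as did 6 of 7 windows (4 genes) of members called lower. For members not called it was 20 of 26 windows (76.9%), so a match did not set called members apart. A match is a description of these letters only and shows no binding.

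The 24-week tumours differed broadly from the 30-week samples. Log2 levels correlated at 0.931 to 0.975 among the 4 arrays of 24-week tumours and at 0.714 to 0.825 between these and the 4 arrays of 30-week tissue. Summed intensity of 9 neuroendocrine and neuronal markers was 51903 to 60284 in cromolyn tumours, 57804 in the KitW-sh tumour, 1813 to 1920 in untreated tumours and 5795 to 6443 in wild type prostate. Of these 9, 8 were above background on all cromolyn arrays and in the KitW-sh tumour, while 7 (Chga and Chgb among them) were below it on both untreated arrays. For 7 luminal prostate markers the sums were 1336 to 3659, 21789, 141366 to 153344 and 163536 to 222190 in the same 4 groups. Of the KitW-sh sum, 18152 came from Spink3, which was at 234 and 31273 in the 2 untreated tumours. The secretory genes Pbsn and Tgm4 were above background in no 24-week tumour, while the other 5 were above it in the KitW-sh tumour. In cromolyn tumours Acpp was also below it throughout, and none of the 7 was above it on all arrays. For 6 smooth muscle markers the sums were 4658 to 10563, 16195, 115418 to 145879 and 165281 to 178817. In such bulk RNA, fewer cells of a type and less RNA per cell cannot be told apart. The part that these differences in makeup play in the results below was not tested.

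In cromolyn against untreated tumours, glycolytic isoforms moved in opposite directions. Hk2, Slc2a1, Pfkm and Pfkl were lower than in untreated tumours, while Eno2, Pfkp, Slc2a3, Slc16a3, Pgk1, Tpi1 and Gapdh were higher. Of the hypoxia genes, Vegfa, Adm and Egln1 were higher and none was lower. In all, 14 of 31 tested members (45.2%) passed limma's test at an adjusted p below 0.05, 10 higher and 4 lower. Over all features 36.9% passed, 18.8% higher and 18.0% lower, so the members' share was near the background and is no result about them. The median log2 difference was 0.27 over the members and 0.05 over all features. In the KitW-sh tumour, 7 of 31 members (22.6%) passed against the same untreated tumours, 5 higher and 2 lower, against a background of 22.6% (11.4% higher, 11.2% lower). The median there was 0.33 over the members and 0.01 over all features. Both comparisons share the 2 untreated arrays, so their likeness is not independent evidence. The KitW-sh group has 1 array, and its tests assume that it varies like the other groups.

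**Figure D1:**
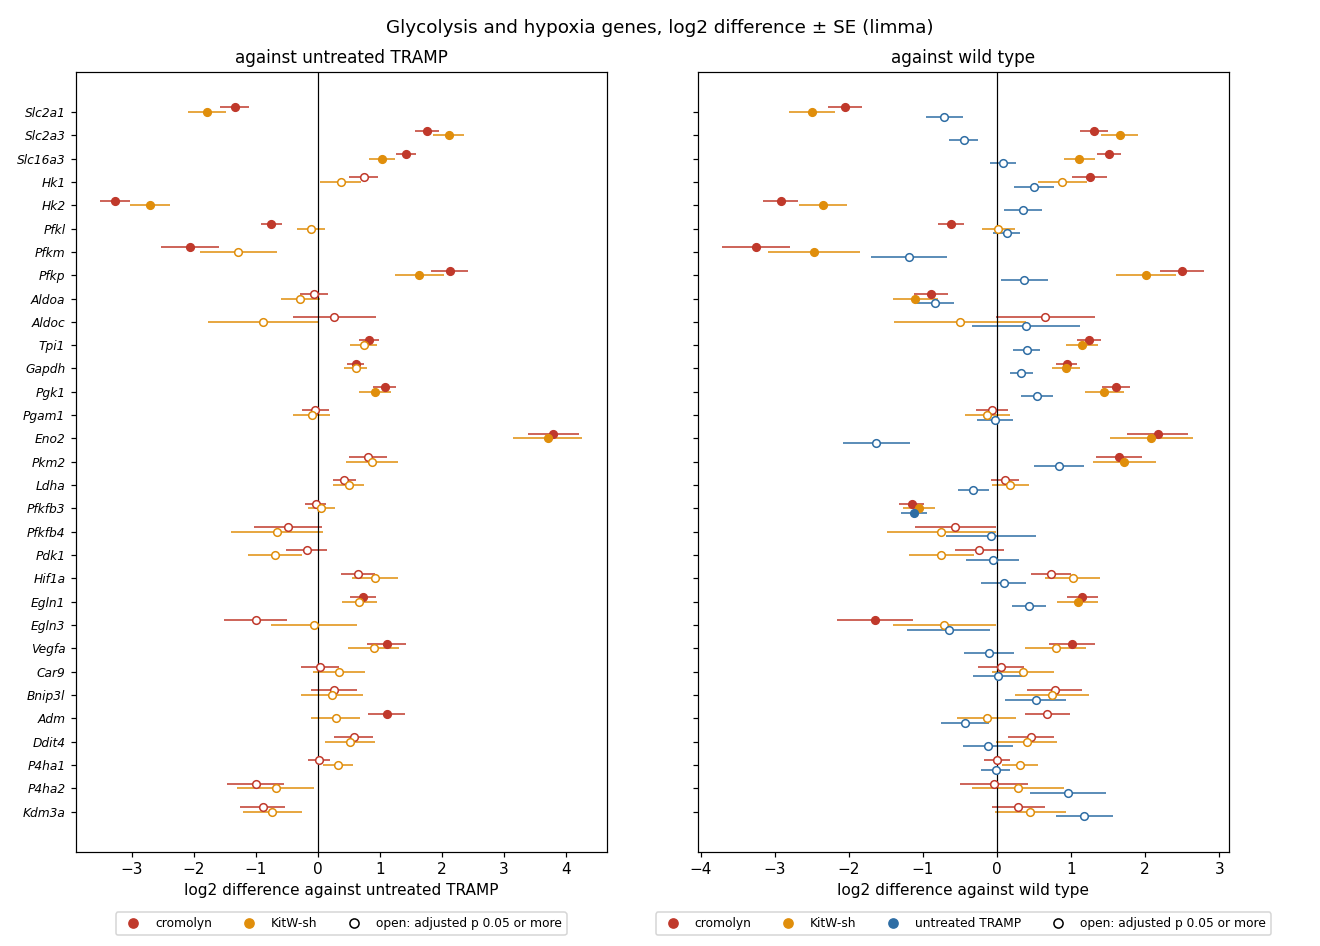
Log2 difference ± SE of each tested member (x axis), against untreated TRAMP tumours on the left and against wild type prostate on the right, ordered by role from transporters at the top to hypoxia genes at the bottom. Filled points passed limma's test over all features; Eno2 lies farthest right at 3.80 and Hk2 farthest left at -3.27 for cromolyn against untreated tumours.

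Glucose transporter genes moved in opposite directions in the 24-week tumours, Slc2a1 lower and Slc2a3 higher than in untreated tumours. Slc2a1 (GLUT1), the widely expressed basal glucose transporter, had intensities of 1457, 999 and 1283 in the 3 cromolyn tumours and 925 in the KitW-sh tumour, against 2900.2 and 3064 in the 2 untreated tumours. Wild type prostates were at 4212 and 5496, so every 24-week tumour lay below every 30-week sample. Slc2a1 fell by 1.34 on the log2 scale in cromolyn against untreated tumours (SE 0.23, adjusted p = 0.00478), and its log2 difference in the KitW-sh tumour was -1.79 ± 0.31 (adjusted p = 0.00922). The KitW-sh call was lost without untreated replicate 2 (adjusted p = 0.054).

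Slc2a3 (GLUT3), the high-affinity transporter typical of neurons, had intensities of 2914, 2308 and 2966 in cromolyn tumours and 3438.5 in the KitW-sh tumour. Untreated tumours were at 931 and 801 and wild type prostates at 1113 and 1184, so the 24-week and 30-week samples did not overlap. Slc2a3 was higher by 1.76 ± 0.19 (log2 ± SE, adjusted p = 0.000722) in cromolyn tumours and by 2.11 ± 0.25 (adjusted p = 0.00254) in the KitW-sh tumour than in untreated tumours. Both calls passed whichever array was left out. Slc16a3 (MCT4), which exports lactate from glycolytic cells, was near background throughout, at 378, 403 and 421 in cromolyn tumours, 324 in the KitW-sh tumour, 201 and 207 in untreated tumours and 205 and 190.3 in wild type prostates. The background limit was 216.3, so only the 24-week tumours exceeded it, and Slc16a3 entered the test through them alone. With each untreated array set to the limit, its intensity as deposited was at least 1.85-fold higher in cromolyn tumours (2.43-fold after background correction, mean log2 8.29 against 6.86 measured in untreated tumours, adjusted p = 0.000848). In the KitW-sh tumour it was at least 1.5-fold higher as deposited (1.84-fold after correction, mean log2 7.89, adjusted p = 0.0175). Background correction widens the folds of such dim probes, and the same 2 scales are given for other bounds. The KitW-sh call was lost without either untreated array (adjusted p up to 0.101) and when both Slc16a3 probes were averaged (adjusted p = 0.152). The second, dimmer probe differed by 0.17 ± 0.18 in cromolyn tumours.

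**Figure D2:**
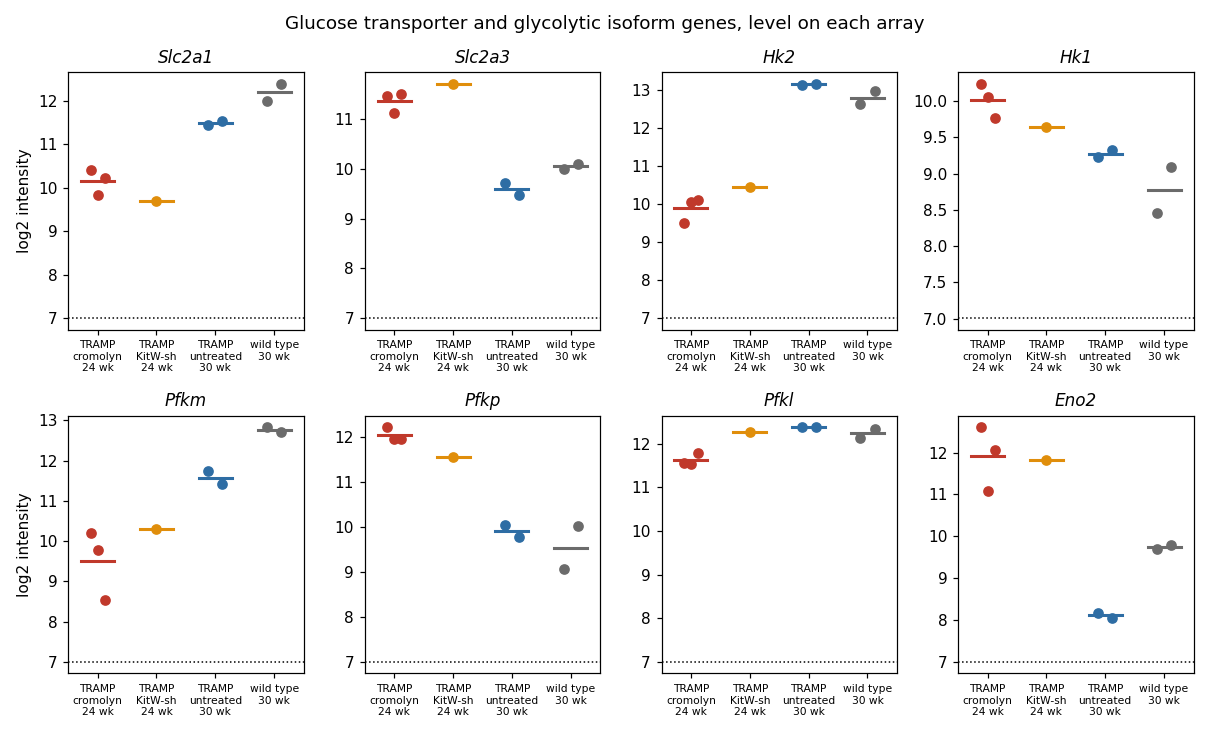
Log2 intensity on each array (points) with the group mean (bar) for 8 transporter and enzyme genes, in cromolyn, KitW-sh, untreated and wild type samples from left to right; the dotted line is the background limit. For Slc2a1 and Hk2 all 24-week tumours lie below all 30-week samples, and for Slc2a3, Pfkp and Eno2 they lie above them.

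The hexokinases, which trap glucose in the cell as glucose 6-phosphate, showed the widest split of any measured isoform pair in cromolyn tumours. Hk2, the inducible isoform of muscle and many tumours, had intensities of 808, 1155 and 1189.7 in cromolyn tumours and 1488 in the KitW-sh tumour, against 9097 and 9312 in untreated tumours. Wild type prostates were at 6389 and 8192, so the 30-week tissues were high with or without tumour. Hk2 fell by 3.27 on the log2 scale in cromolyn tumours (SE 0.24, adjusted p = 0.000187), a 9.64-fold lower level, and differed by -2.70 ± 0.32 in the KitW-sh tumour (adjusted p = 0.00257). Both calls passed under all alternatives. Hk1, the constitutive isoform that is abundant in brain, was at 1297, 1149 and 957 in cromolyn tumours and 890.1 in the KitW-sh tumour, against 689 and 727 in untreated tumours and 440.4 and 630 in wild type prostates. All cromolyn values lay above all untreated ones, but the difference of 0.74 ± 0.24 missed the threshold (adjusted p = 0.0521), as did 0.37 ± 0.33 in the KitW-sh tumour (adjusted p = 0.477). The cromolyn difference of Hk1 did pass under 6 alternatives, among them without wild type replicate 1 or 2 (adjusted p 0.0351 and 0.0352). Against wild type, Hk1 was higher in cromolyn tumours by 1.25 ± 0.24 (adjusted p = 0.00636).

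Phosphofructokinase commits sugar to glycolysis, and its muscle (Pfkm), liver (Pfkl) and platelet (Pfkp) subunits are made by 3 genes. Pfkp was at 4824, 4054 and 4046 in cromolyn tumours and 3088 in the KitW-sh tumour, against 1140.2 and 962.5 in untreated tumours and 621 and 1125.5 in wild type prostates. It was higher by 2.13 ± 0.30 in cromolyn tumours (adjusted p = 0.00212) and by 1.64 ± 0.40 in the KitW-sh tumour (adjusted p = 0.029). The KitW-sh call was lost without either untreated array (adjusted p up to 0.126). Pfkm was at 1277, 974 and 462 in cromolyn tumours and 1350 in the KitW-sh tumour, against 3492 and 2839 in untreated tumours and 7369 and 6758.5 in wild type prostates. The 24-week tumours were thus lowest, the untreated tumours between and wild type prostates highest, without overlap, with the widest spread among cromolyn tumours (log2 SD 0.87). Pfkm fell by 2.06 on the log2 scale in cromolyn tumours (SE 0.46, adjusted p = 0.0141), a call lost without either untreated array (adjusted p up to 0.0957). In the KitW-sh tumour the difference of -1.28 ± 0.62 did not pass (adjusted p = 0.196), though it did without cromolyn replicate 3 (adjusted p = 0.0307). Pfkm is the isoform of striated muscle, and 9 skeletal muscle markers summed to 2012 to 5239 in cromolyn tumours, 1934 in the KitW-sh tumour, 16417 to 22757 in untreated tumours and 66913 to 90000 in wild type prostates. In untreated tumours Acta1 alone was at 18192 and 12237, while Myh1, Tnnt3 and Pvalb were below background on both arrays. The median log2 difference of these markers was -3.99 in untreated tumours against wild type and -0.09 in cromolyn against untreated tumours. The part of muscle tissue in the Pfkm levels was not tested.

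Pfkl was at 3118, 3035 and 3614 in cromolyn tumours and 5012 in the KitW-sh tumour, against 5394 and 5405 in untreated tumours and 4596 and 5303 in wild type prostates. The KitW-sh value was thus within the range of the 30-week samples. The fall of 0.75 on the log2 scale in cromolyn tumours (SE 0.17, adjusted p = 0.013) was lost without either untreated array (adjusted p up to 0.0937) and when the probes of the gene were averaged (adjusted p = 0.113).

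Enolase converts 2-phosphoglycerate to phosphoenolpyruvate, and Eno2 encodes its neuronal γ subunit, which is also a classical neuroendocrine marker. Eno2 was at 6310.3, 2248 and 4373 in cromolyn tumours and 3712 in the KitW-sh tumour, against 376 and 355 in untreated tumours and 915 and 981 in wild type prostates. Its log2 level was higher by 3.80 ± 0.41 in cromolyn tumours (13.9-fold, adjusted p = 0.000805) and by 3.71 ± 0.56 in the KitW-sh tumour (13.1-fold, adjusted p = 0.00577). Both calls passed under all alternatives. The untreated tumours lay below wild type prostate, by 1.63 ± 0.45 on the log2 scale, without passing the test (adjusted p = 0.092). As with the neuroendocrine marker sums, all 24-week tumours were highest and the untreated tumours lowest. The ubiquitous α-enolase gene had no probe here, so a switch between enolases could not be measured.

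Of the other enzymes of the lower pathway, 3 of 8 with a probe rose in cromolyn against untreated tumours and none fell, a share near the 36.9% of all features that passed. Pgk1, which makes the first ATP of the payoff phase, was at 482, 420.3 and 496.5 in cromolyn tumours and 425 in the KitW-sh tumour, against 268.5 and 265 in untreated tumours and 230.4 and 194 in wild type prostates. These levels were near the background limit, and 1 wild type array was below it. Pgk1 was higher by 1.08 ± 0.19 (adjusted p = 0.00587) in cromolyn tumours and by 0.92 ± 0.26 (adjusted p = 0.0468) in the KitW-sh tumour. The first call was lost without untreated replicate 2 (adjusted p = 0.0531). The second was lost without either untreated array or cromolyn replicates 1 or 3 (adjusted p up to 0.172), and with an intensity trend. Tpi1, which interconverts the triose phosphates, was at 38889.6, 35173 and 42654 in cromolyn tumours and 36428 in the KitW-sh tumour, against 20765.5 and 22881 in untreated tumours and 15984.5 and 17048 in wild type prostates. It was higher by 0.83 ± 0.16 in cromolyn tumours (adjusted p = 0.00818), and the 0.74 ± 0.22 of the KitW-sh tumour did not pass (adjusted p = 0.0529), though it did without background correction (adjusted p = 0.0306).

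Gapdh, the dehydrogenase that often serves as a loading control, was at 62050, 62960.2 and 62960.2 in cromolyn tumours and 62406 in the KitW-sh tumour, against 41838 and 40176 in untreated tumours and 31808 and 33674 in wild type prostates. The 24-week values sat near the top of the array's scale, whose highest value was 68806. Gapdh was higher by 0.61 ± 0.14 in cromolyn tumours (adjusted p = 0.0159), and the 0.61 ± 0.19 of the KitW-sh tumour did not pass (adjusted p = 0.0655), though it did without background correction (adjusted p = 0.0292). The cromolyn calls of Tpi1 and Gapdh were both lost without either untreated array (adjusted p up to 0.0829 for Tpi1 and 0.127 for Gapdh). That of Gapdh was also lost when replicate number entered the limma model (adjusted p = 0.0775). Only the cromolyn group has a replicate 3, so that model sets this array aside. In the KitW-sh tumour, Tpi1 and Gapdh also passed without the dim filter, with probes averaged (log2 difference 1.11 and 0.85) and with an intensity trend. Pyruvate kinase M (Pkm2 in the list, now Pkm), whose splice forms were not told apart, was at 34064, 33871 and 45166 in cromolyn tumours and 39208.5 in the KitW-sh tumour, against 22249 and 20589.7 in untreated tumours. Its difference of 0.81 ± 0.31 missed the threshold (adjusted p = 0.0869) although the groups did not overlap, and passed without wild type replicate 1 or 2 (adjusted p 0.0275 and 0.0277). Ldha, which turns pyruvate into lactate, differed by 0.43 ± 0.19 (adjusted p = 0.128), Aldoa by -0.06 ± 0.23, Pgam1 by -0.04 ± 0.22 and Aldoc by 0.27 ± 0.67 in cromolyn against untreated tumours, and none of them passed. Aldoc, the brain aldolase, spread widely within the cromolyn group, at 2860.2, 2352 and 676.

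None of the 3 regulatory enzymes passed the test in cromolyn or KitW-sh against untreated tumours. Pfkfb3 and Pfkfb4 set the level of fructose 2,6-bisphosphate, the activator of phosphofructokinase, and Pdk1 blocks entry of pyruvate into mitochondria. Pfkfb3 was below background in all 6 tumours and above it only in wild type prostates, at 275 and 266, so it entered the test through them alone. Pfkfb4 differed by -0.48 ± 0.55 (adjusted p = 0.549) and Pdk1 by -0.18 ± 0.33 (adjusted p = 0.715), with overlapping groups.

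Of the 11 tested oxygen-sensing and hypoxia-response genes, 3 rose in cromolyn tumours, none fell, and none passed in the KitW-sh tumour. Over all features 36.9% and 22.6% passed in these comparisons, so the group's counts were not above the background. Hif1a was at 1094, 1333 and 1244 in cromolyn tumours and 1468 in the KitW-sh tumour, against 790 and 831 in untreated tumours and 589 and 1011 in wild type prostates. The 24-week values were all the higher ones, but 0.65 ± 0.27 in cromolyn tumours (adjusted p = 0.112) and 0.93 ± 0.37 in the KitW-sh tumour (adjusted p = 0.121) did not pass. Both passed without wild type replicate 1 (adjusted p 0.0334 and 0.0418) or 2 (adjusted p 0.0338 and 0.0423). HIF-1α is controlled mainly at the protein level, which was not measured. Egln1, the main HIF prolyl hydroxylase, was at 762, 789 and 619.6 in cromolyn tumours and 693 in the KitW-sh tumour, against 455 and 484.5 in untreated tumours and 414 and 334 in wild type prostates. It was higher by 0.73 ± 0.21 in cromolyn tumours (adjusted p = 0.0326), whereas 0.67 ± 0.28 in the KitW-sh tumour did not pass (adjusted p = 0.138). Egln3, a hydroxylase that is itself induced by HIF in many cells, was at 255, 394 and 408 in cromolyn tumours and 574.5 in the KitW-sh tumour, against 513 and 692 in untreated tumours. The mean was 1.99-fold lower in cromolyn tumours (SE 0.51 on the log2 scale) and did not pass (adjusted p = 0.177).

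Vegfa, the main angiogenic growth factor, was at 3451.5, 2876 and 4679.8 in cromolyn tumours and 3108 in the KitW-sh tumour, against 1800.1 and 1619 in untreated tumours and 2385 and 1415 in wild type prostates. It was higher by 1.11 ± 0.31 in cromolyn tumours (adjusted p = 0.0294), and 0.90 ± 0.41 in the KitW-sh tumour did not pass (adjusted p = 0.171). None of 6 endothelial markers passed in either comparison, and their sums were 4718 to 5343 in cromolyn tumours, 5495 in the KitW-sh tumour and 3915 to 4805 in untreated tumours. Adm, the vasodilator adrenomedullin, was dim, at 432, 408 and 267 in cromolyn tumours and 241 in the KitW-sh tumour, against 218 and 209 in untreated tumours and 262 and 252 in wild type prostates. It was higher by 1.11 ± 0.30 in cromolyn tumours (adjusted p = 0.0268), where replicate 3 was close to wild type prostate. Only 1 of the 2 untreated arrays was above the background limit for Adm, so the size of this difference is uncertain. Each of the 3 hypoxia calls was lost without either untreated array. They were also lost without cromolyn replicates 1 or 2 for Egln1 and Adm, and without cromolyn replicates 1 or 3 for Vegfa. The highest adjusted p among these was 0.184 for Egln1, 0.157 for Vegfa and 0.142 for Adm. Egln1 was also lost with cyclic loess normalization (adjusted p = 0.0518), with an intensity trend (0.0508) and with its probes averaged (0.0805). When replicate number entered the limma model, which sets cromolyn replicate 3 aside, Egln1 (adjusted p = 0.0532) and Vegfa (0.0511) were lost.

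**Figure D3:**
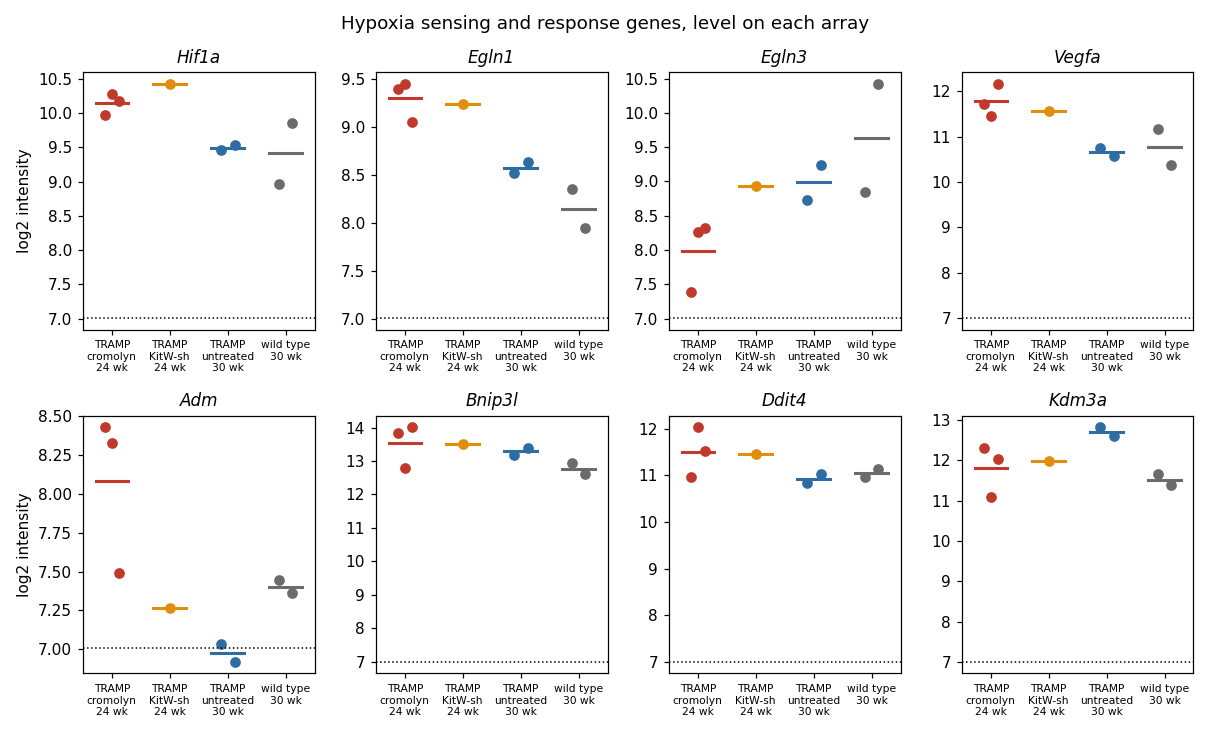
Log2 intensity on each array (points) with the group mean (bar) for 8 hypoxia sensing and response genes, in cromolyn, KitW-sh, untreated and wild type samples from left to right; the dotted line is the background limit. Vegfa and Egln1 are higher in all 24-week tumours than in both untreated tumours, Kdm3a is lower, and Bnip3l and Ddit4 overlap between cromolyn and untreated tumours.

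The other 8 members of the hypoxia group, Hif1a and Egln3 included, did not pass in either comparison with untreated tumours. Kdm3a, a histone demethylase, was at 5163, 2276 and 4288 in cromolyn tumours and 4107 in the KitW-sh tumour, against 7298 and 6252 in untreated tumours and 3310.3 and 2774 in wild type prostates, a cromolyn difference of -0.89 ± 0.36 (adjusted p = 0.0993). The collagen prolyl hydroxylase subunit P4ha2 was 2.00-fold lower (SE 0.46 on the log2 scale, adjusted p = 0.139) and its sister P4ha1 differed by 0.02 ± 0.18 (adjusted p = 0.94). The mitophagy receptor gene Bnip3l differed by 0.26 ± 0.37 (adjusted p = 0.63), and Ddit4, which restrains mTOR, by 0.58 ± 0.31 (adjusted p = 0.19). Car9, the tumour carbonic anhydrase often used as a hypoxia marker, exceeded background on only 2 arrays, at 269 in cromolyn replicate 2 and 232 in the KitW-sh tumour. In cromolyn against untreated tumours the median log2 difference was 0.26 over the 11 tested hypoxia genes and 0.52 over the 14 tested glycolytic enzymes. Over all features it was 0.05. Of the enzymes 8 passed, 5 higher and 3 lower, beside 36.9% of all features. Whether the hypoxia genes, the enzymes and all features differ was not tested. Leaving out 1 cromolyn array gave calls to Ddit4 and Kdm3a (replicate 1, adjusted p 0.0379 and 0.0487), Bnip3l (replicate 2, 0.0412) and P4ha2 (replicate 3, 0.0109).

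Several probes for 1 gene did not always give the same difference. Of the 11 members with more than 1 probe above background, the brightest was used above. The second Pfkp probe differed by 2.14 ± 0.19 in cromolyn against untreated tumours, like the first. Of the other Pfkm probes, 1 differed by -2.19 ± 0.50 and the other by -0.70 ± 0.25, which did not pass. The other Tpi1 probes differed by 0.75 ± 0.14 and 2.27 ± 0.18, and the second Gapdh probe by 1.14 ± 0.17, more than the 0.61 of the probe near the top of the scale. For Pfkl the second probe, near background at 204 to 258 on every array, differed by 0.10 ± 0.17 and thus did not show the fall of the first. The second Vegfa probe (0.71 ± 0.23) and the other Egln1 probes (0.68 ± 0.30 and 0.51 ± 0.25) were also higher but did not pass. Pfkfb4 had a dim second probe, at 353, 196 and 438 in cromolyn tumours against 286 and 235 in untreated tumours. Unlike the first, it was not lower on average in cromolyn tumours, and the groups overlapped.

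**Figure D4:**
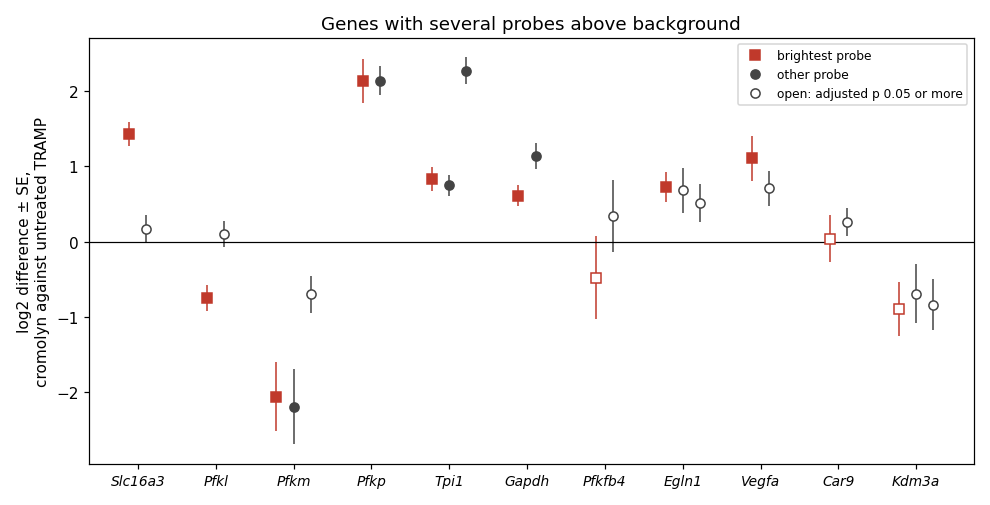
Log2 difference ± SE between cromolyn and untreated TRAMP tumours (y axis) for every probe above background of the 11 members with several such probes (x axis); squares are the brightest probe, circles the others, and open symbols did not pass. The probes of Pfkp, Vegfa, Egln1 and Kdm3a give like values, while those of Slc16a3, Pfkl, Pfkm and Tpi1 spread.

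Whether 2 isoforms moved apart was read within each array, as the difference between their log2 levels. Of 12 pairs, 8 had both genes tested. In 1 of these, Pfkfb4 with Pfkfb3, the second gene was below background in every tumour, which leaves 7 pairs. In cromolyn against untreated tumours the Hk2 minus Hk1 difference was lower by 4.01 (SE 0.37), Slc2a3 minus Slc2a1 was higher by 3.10 ± 0.16 and Pfkp minus Pfkl was higher by 2.88 ± 0.30. In the KitW-sh tumour the same 3 shifts were -3.07 ± 0.50, 3.90 ± 0.22 and 1.75 ± 0.40. In these 3 pairs, therefore, both groups of 24-week tumours lay on one side of the untreated tumours. For cromolyn against untreated tumours, the Egln3 minus Egln1 shift was -1.72 ± 0.77, Pfkm minus Pfkl -1.31 ± 0.66 and P4ha2 minus P4ha1 -1.02 ± 0.49. Cromolyn and untreated arrays did not overlap for 6 of the 7 pairs, while Aldoc minus Aldoa overlapped. Single features did not overlap between these groups in 63.7% of cases, and in 61.0% between untreated tumours and wild type prostate, so non-overlap was common over all features. The exact two-sided permutation test of 3 arrays against 2 gave p = 0.2 for each of those 6 pairs, which is the smallest it can give, so no pair could reach 0.05. Untreated tumours and wild type prostate differed by -0.15 ± 0.41 for Hk2 minus Hk1, 0.26 ± 0.18 for Slc2a3 minus Slc2a1 and 0.24 ± 0.33 for Pfkp minus Pfkl, with overlapping arrays. Of the other 4 pairs, Pfkm minus Pfkl (-1.32 ± 0.72), Aldoc minus Aldoa (1.21 ± 1.06) and P4ha2 minus P4ha1 (0.98 ± 0.54) did not overlap there.

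In untreated 30-week tumours against wild type prostate, few of these genes passed the test. Of 31 tested members, 1 (3.23%) passed, lower in tumours, against a background of 6.61% of features (3.73% higher, 2.88% lower). This was Pfkfb3, at 178 and 167 in untreated tumours, against 275 and 266 in wild type prostates, at least 1.25-fold lower as deposited (1.42-fold after background correction, mean log2 6.40 against 7.52, adjusted p = 0.0167). Pfkfb3 was above background only on the wild type arrays and was tested through them alone. The call was lost when any 1 of those 4 arrays was left out (adjusted p up to 0.169). The largest differences that did not pass were -1.63 ± 0.45 for Eno2, -1.19 ± 0.51 for Pfkm (adjusted p = 0.243) and 1.18 ± 0.39 for Kdm3a (adjusted p = 0.145). Eno2 and Kdm3a passed without cromolyn replicate 2 (adjusted p 0.0103 and 0.0201) and Pfkm without cromolyn replicate 3 (0.0491), since the cromolyn arrays enter the estimate of spread. The median difference was 0.01 over the members and -0.01 over all features. In the same comparison all 5 measured cell cycle markers passed as higher, with a median difference of 2.86, and 7 of 9 skeletal muscle markers passed as lower.

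Against wild type prostate, 18 of 31 members (58.1%) passed in cromolyn tumours, 11 higher and 7 lower, against a background of 45.7% (22.9% higher, 22.8% lower). In the KitW-sh tumour 14 (45.2%) passed, 9 higher and 5 lower, against 31.1% (15.8% higher, 15.2% lower). The median log2 difference from wild type was 0.46 over the members and 0.03 over all features in cromolyn tumours. Both comparisons share the wild type arrays. Slc2a1 fell by 2.05 on the log2 scale in cromolyn tumours (SE 0.23, adjusted p = 0.000632), and Hk2 fell by 2.92 (SE 0.24, adjusted p = 0.00019). Pfkm fell by 3.25 (SE 0.46, adjusted p = 0.00178), the largest difference of any member from wild type. Pkm2 was at 8512 and 16851 in wild type prostates, and it was higher by 1.65 ± 0.31 in cromolyn tumours (adjusted p = 0.00565) and by 1.72 ± 0.42 in the KitW-sh tumour (adjusted p = 0.0227). Aldoa, the muscle-rich aldolase, fell by 0.89 on the log2 scale in cromolyn tumours (SE 0.23, adjusted p = 0.0193) and differed by -1.10 ± 0.31 in the KitW-sh tumour (adjusted p = 0.0366). Without wild type replicate 2 both calls of Aldoa were lost (adjusted p 0.114 and 0.11), the KitW-sh one also without either untreated array or cromolyn replicate 3 (up to 0.0753). Egln1 was higher by 1.15 ± 0.21 in cromolyn tumours (adjusted p = 0.00448) and by 1.09 ± 0.28 in the KitW-sh tumour (adjusted p = 0.0262), the second lost without wild type replicate 2 or either untreated array (up to 0.0859). Egln3, at 548 and 1465 in wild type prostates, fell by 1.65 in cromolyn tumours (SE 0.51, adjusted p = 0.0374), a call lost without wild type replicate 2, either untreated array or cromolyn replicates 1 or 3 (adjusted p up to 0.2). Of the 18 calls in cromolyn tumours, 14 passed whichever array was left out, as did 10 of the 14 in the KitW-sh tumour.

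Drug-treated and KitW-sh tumours of the same age were not told apart by any member. In the KitW-sh against the cromolyn tumours 0 of 31 members passed limma's test, against a background of 0.0229%, and the lowest adjusted p was 0.829. Only Pfkl had an unadjusted p below 0.05, as did 5.42% of all features, at 5012 in the KitW-sh tumour, against 3118, 3035 and 3614 in cromolyn tumours. With 1 KitW-sh array this does not show that the tumours were alike. The Hk2 minus Hk1 difference, for example, was higher in the KitW-sh tumour by 0.94 ± 0.47.

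Genes next to these pathways were counted from 4 further lists. The shares of each that passed in cromolyn against untreated tumours are read against 36.9% of all features (18.8% higher, 18.0% lower), and with 7 to 21 genes a list none is a result about the list. Of other glycolysis and pyruvate genes, 13 of 24 were tested in cromolyn against untreated tumours, and 1 rose and 4 fell. Pdk2, a pyruvate dehydrogenase kinase, fell by 1.74 on the log2 scale (SE 0.27, adjusted p = 0.00348), and Pdha1, a subunit of the enzyme it restrains, fell by 0.83 (SE 0.17, adjusted p = 0.00959). Dlat, another subunit of that complex, was higher by 1.15 ± 0.26 (adjusted p = 0.015), and Bsg, the chaperone of lactate transporters, fell by 0.81 (SE 0.19, adjusted p = 0.0174). Bsg was at 212, 189.6 and 224 in cromolyn tumours, above the background limit on 1 of 3 arrays. The calls of Pdha1, Dlat and Bsg were lost without either untreated array (adjusted p up to 0.142), and that of Pdk2 was kept. The list's median was -0.12. In the KitW-sh tumour, Pdk2 fell by 2.17 (SE 0.37, adjusted p = 0.00871), while the fall of Pdha1 by 0.98 (adjusted p = 0.0252) was lost without either untreated array (up to 0.13).

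Of 8 tested gluconeogenesis and glycogen genes 3 fell and none rose in cromolyn tumours, again near the 36.9% of all features that passed. Fbp1, the fructose bisphosphatase that runs the phosphofructokinase step backwards, was at 177, 178.5 and 215 in cromolyn tumours and 195 in the KitW-sh tumour, against 4120.5 and 3959.8 in untreated tumours and 616 and 644 in wild type prostates. It was thus high in the untreated tumours and below background in all 24-week tumours, at least 18.7-fold lower there as deposited (30.7-fold after background correction). The adjusted p was 2.66e-05 in cromolyn tumours and 0.000207 in the KitW-sh tumour. Against wild type, Fbp1 was higher by 2.87 ± 0.22 in untreated tumours (adjusted p = 0.00133). Pygb, the brain glycogen phosphorylase, fell by 1.29 in cromolyn tumours (SE 0.19, adjusted p = 0.00263).

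Among other hypoxia genes, 4 of 21 tested rose and 3 fell in cromolyn tumours, with a median of -0.17, beside the same 36.9%. P4hb, which pairs with the collagen prolyl hydroxylases, fell by 1.47 (SE 0.19, adjusted p = 0.00168), and Epas1, which encodes HIF-2α, fell by 0.96 (SE 0.20, adjusted p = 0.0105). Epas1 was at 222, 186 and 195.5 in cromolyn tumours, above the background limit on 1 of 3 arrays. Mif, a cytokine gene, was higher by 0.80 ± 0.17 (adjusted p = 0.0103). Of 7 tested genes of the pentose phosphate and serine branches, 2 rose and 2 fell, also beside 36.9%. Shmt2, the mitochondrial serine hydroxymethyltransferase, was higher by 1.65 ± 0.26 (adjusted p = 0.00329), and Phgdh, the first enzyme of serine synthesis, fell by 1.76 (SE 0.33, adjusted p = 0.00697). Psat1, also of the serine branch, was higher, at 28236.5, 9499 and 18794 against 6022 and 7048 in untreated tumours (adjusted p = 0.042). Taldo1, of the pentose phosphate branch, fell (adjusted p = 0.0479). The calls of Psat1 and Taldo1 were lost under 10 and 8 of 18 alternatives. The calls of Epas1 and Mif were lost without either untreated array and that of Phgdh without untreated replicate 1 (adjusted p up to 0.0929). In untreated tumours against wild type prostate, 2 of the 13 other glycolysis and pyruvate genes fell and none rose, against 2.88% of features lower. Pgam2, muscle phosphoglycerate mutase, was at 194 and 179.5 in untreated tumours, against 1187 and 1683 in wild type prostates, at least 6.54-fold lower as deposited (10.3-fold after background correction, adjusted p = 0.00104). Eno3, muscle enolase, fell by 3.08 on the log2 scale (SE 0.26, adjusted p = 0.00168), beside the lower skeletal muscle markers of those tumours.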

How the data were processed

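Total RNA of 8 samples was hybridised to Illumina bead arrays. The deposited intensity values are linear, were exported with BeadStudio per the submitters' processing notes (version not given in the sources used here), and hold nearly the same sorted values on every array (largest log2 gap 0.0489), so they were already quantile normalized. A second table of 8 signal columns was not used, because no label ties its columns to samples.

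Probes were named through the platform annotation: 23978 of 25697 had 1 symbol, 0 several and 1719 none, and 23962 were matched to a gene of GRCm38.p6 RefSeq. Background (mode 181) was corrected with normexp (offset 50), values were quantile normalized and log2 transformed. Probes above 216.3 (the upper 0.01 of background) on at least 1 array were kept, the brightest per gene. On each array 56.6% of probes exceeded that limit; bead numbers and so the precision of single values are unknown, and the number of arrays limits the precision.

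limma 3.58.1 (R 4.3.3) modelled the mean of each group, with a spread shared by the 8 arrays (residual degrees of freedom 4, prior 2.62), and 6 comparisons were made. P-values were two-sided and adjusted by Benjamini-Hochberg over 13072 features, with 0.05 as the threshold. The fit was tested on simulated data. Isoform pairs also had an exact permutation test. All members were reported; of each related list, up to 4 called genes per comparison with the smallest p. Members and lists were chosen with earlier results of these data known. Alternatives tried were the normalization, background correction, background limit, dim filter, probe rule, spread model, replicate block, samples fitted and leaving out each array. The other normalizations could not undo the quantile normalization already in the deposited values. Replicate numbers are not tied by the labels to shared animals or batches. Only the cromolyn group has a replicate 3, so the replicate block fits that array exactly and sets it aside.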

Additional observations from a re-analysis of the deposited data

How the results depend on the processing

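Of 54 member calls in the 6 comparisons, 31 passed under every alternative and 23 were lost under at least 1. In none did the sign of a call turn. The deposited values were already quantile normalized, so dependence on that step was not tested. For untreated tumours against wild type, the 1 call became 0 with a replicate block and 5 when only those 2 groups were fitted, and ran from 0 to 3 with each array left out. For cromolyn against untreated tumours the 14 calls ran from 6 to 17 with each array left out (7 without untreated replicate 1 and 6 without replicate 2) and from 12 to 17 otherwise. For the KitW-sh against untreated tumours the 7 calls ran from 3 to 8 (4 and 3 without the same arrays) and from 5 to 9 otherwise. These losses come with fewer arrays, and any other cause was not tested. Deviations of same-numbered samples correlated at 0.00211 to 0.0743. In groups of 2 arrays the deviations mirror each other, so this cannot show whether same-numbered samples share a batch or an animal. The replicate block sets cromolyn replicate 3 aside. With it, Gapdh, Egln1 and Vegfa lost their calls in cromolyn against untreated tumours, and P4ha2 gained a call (-1.47, adjusted p = 0.018). In cromolyn tumours against wild type, Aldoa and Vegfa lost calls and Aldoc and Adm gained them. Slc16a3, Pfkp and Pgk1 lost theirs in the KitW-sh against untreated tumours. The block also brought Pfkm in the KitW-sh against untreated tumours past the threshold (adjusted p = 0.0323). With the replicate block, 12 members were called in cromolyn and 5 in the KitW-sh against untreated tumours, and 18 and 10 against wild type. The KitW-sh and cromolyn tumours gave 0 calls under every alternative. Slc16a3, Pfkfb3, Car9, Adm and Pgk1 were at or near background, where background correction widens folds and the size of a log2 difference is uncertain. Gapdh lay near the top of the scale.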
